A study of Arabidopsis thaliana with 4 samples.

Results

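The tau and phi glutathione transferases are large plant classes of enzymes that join the tripeptide glutathione to reactive or foreign compounds. The members were the probe sets whose annotated locus was a tau (GSTU) or phi (GSTF) gene from a fixed list of 40 loci and no gene outside it, which gave 38 of the 22746 probe sets tested. All 40 genes, of 23616 named on the array, were covered. The 28 tau genes had a probe set each. The 12 phi genes had 10 probe sets, because GSTF2 with GSTF3, and GSTF6 with GSTF7, share one. A further probe set named GSTF8 together with a gene outside the list and was left out, and GSTF8 kept its own.

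Whole seedlings of Arabidopsis thaliana, cultivar Columbia 0, were profiled at 5 days on Affymetrix 3′ arrays. All 4 samples are marked WT (wild type) in their descriptions. One group was raised on half-strength Murashige and Skoog agar with ASP, a synthetic piperazine that carries a bromophenoxyacetyl group on one nitrogen and a fluorophenylsulfonyl group on the other, and the other group had grown on the same medium without ASP (control). Both shared the 0.1% sucrose and the long-day light cycle. Each group held 2 arrays, called biological replicates in the labels, and neither the dose of ASP nor the number of seedlings per sample is given in the sources used here. P-values therefore measure the spread among 4 samples, and with so few arrays each value is imprecise.

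In the general scheme of plant detoxification, glutathione transferases make a conjugate, ABC transporters of the C type move it into the vacuole, and peptidases break it down there. Tau enzymes are specific to plants and have a broad range of foreign substrates such as herbicides, and many of their genes respond to oxylipins, wounding or safeners. Phi enzymes act on herbicides too, reduce lipid peroxides, and include members that work in camalexin or pigment metabolism.

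The phi probe sets lay lower in seedlings grown with ASP, whereas the tau probe sets lay on both sides of 0. Of the 10 phi probe sets, 10 had a log2 fold change (ASP minus control) below 0, with a median of -0.45 and a range of -1.11 to -0.07. Of the 28 tau probe sets, 16 were above 0 and 12 below, with a median of 0.09. In the 22 tau probe sets called present on at least 1 array, 11 were above 0 and 11 below, with a median of 0.02. Those 22 ran from -0.93 to 0.69, and values ran further only in probe sets at background. Over all probe sets 52.5% were below 0, 47.5% above, and the median was -0.02. None of the members was called by limma's test over all probe sets at a Benjamini-Hochberg adjusted p under 0.05, the smallest adjusted p being 0.529, and the share of all probe sets called was 0%. When the prior variance was allowed to follow signal intensity (the intensity trend), limma called 0.317% of all probe sets and none of the members, whose smallest adjusted p was 0.171. Each difference of a member below is therefore a measured value that did not pass adjustment.

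Detection calls set how much each member can tell. Of the tau probe sets, 17 were called present on all 4 arrays, 5 on some, and 6 on none, namely GSTU2, GSTU3, GSTU10, GSTU12, GSTU15 and GSTU21. Of the phi probe sets, 7 were called present on all 4 arrays, GSTF4 and GSTF13 on 3, and GSTF5 on none. Probe sets present on no array are kept in the counts and medians of their class, but both groups were at background there and their differences are not read as folds. Because these families hold close paralogs, a probe set may also bind transcripts of a related member, and the shared pairs cannot be told apart.

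The samples were whole seedlings, so fewer cells of a type and less RNA per cell cannot be told apart. Of 6 root markers 5 were lower with ASP, with log2 fold changes from -1.94 (TIP2;3) to 0.17 (PYK10), and IRT1 (-1.82) passed limma with the trend (adjusted p 0.0177, and 0.352 without it). Their summed linear signal was 16678 to 17335 with ASP, against 13905 to 19684 in control, and without PYK10, which makes up most of it, 1081 to 1097 with ASP, against 1862 to 3160 in control. The 5 root markers without PYK10 were thus lower with ASP, whereas the sums with PYK10 overlapped between the groups. TIP2;3 was called absent and marginal on the ASP arrays and present on both control arrays. Of 5 green shoot markers, 2 had a probe set of their own, CA1 and RCA. They were higher by 0.52 and 0.29, with summed signals of 27177 to 30763 with ASP, against 21647 to 24013 in control. Of 5 seed storage markers, CRA1, CRU2, OLEO1 and PAP85 were absent on all 4 arrays, with sums over the 5 of 55 to 88 with ASP, against 116 to 153 in control. The part of root and shoot shares in the tau and phi values was not tested. The arrays called 15075 and 15706 probe sets present with ASP, against 15415 and 15282 in control, and 27 and 28 of the members with ASP, against 29 and 30 in control.

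Among tau genes, the clearest higher levels were those of GSTU18, GSTU16 and GSTU7, in which both ASP arrays lay above both control arrays with little spread. GSTU18 (AT1G10360) had log2 signals of 8.93 and 8.91 with ASP, against 8.34 and 8.13 in control. It averaged 8.92 ± 0.01 with ASP and 8.23 ± 0.15 in control (SD, n = 2 each), 1.61-fold higher, with a log2 fold change of 0.69 and a 95% interval of 0.22 to 1.15. By limma its adjusted p was 0.557 without the trend and 0.171 with it. The ASP arrays were nearly equal and the gap to control exceeded the distance between the control arrays.

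GSTU16 (AT1G59700) had 8.71 and 8.54 with ASP, against 7.85 and 8.01 in control. That is 1.62-fold higher, with a log2 fold change of 0.69 (95% interval 0.21 to 1.18, limma adjusted p 0.564, and 0.217 with the trend). GSTU7 (AT2G29420) had 9.51 and 9.31 with ASP, against 8.94 and 8.61 in control, 1.55-fold higher (95% interval of the log2 fold change 0.04 to 1.23, limma adjusted p 0.661). In both genes the groups did not overlap and the distance between group means was larger than that between arrays of a group.

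GSTU22 (AT1G78340) was less even. Its log2 signal was 8.08 and 8.33 with ASP, against 7.94 and 7.08 in control, so most of its log2 fold change of 0.69 came from control replicate 2. The 95% interval ran from -0.41 to 1.80. GSTU12 (AT1G69920), with an unadjusted limma p of 0.0197 and an adjusted p of 0.573, had signals of 5.47 and 4.84 with ASP, against 2.74 and 3.69 in control. All 4 of its calls were absent, so both groups were at background and the difference has no fold.

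Other tau genes were lower with ASP. GSTU14 (AT1G27140) had the smallest p of all members without the trend (0.0125, and 0.0619 with it, where GSTU18 was smallest at 0.00206), with log2 signals of 5.30 and 5.26 with ASP, against 6.39 and 6.04 in control. It was 1.90-fold lower, with a log2 fold change of -0.93 (95% interval -1.50 to -0.36, limma adjusted p 0.529), and was called present on both control arrays but on 1 of the ASP arrays, with a marginal call on the other. With the trend its interval widened to -1.92 to 0.06. The median within-group SD over all probe sets was 0.78 under a mean log2 signal of 6 and 0.11 at 10 and over.

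GSTU26 (AT1G17190), a gene known to respond to chloroacetanilide herbicides, had 6.94 and 7.47 with ASP, against 8.13 and 7.74 in control, and was 1.66-fold lower (95% interval of the log2 fold change -1.59 to 0.13, limma adjusted p 0.720). GSTU17 (AT1G10370, also ERD9), first described as an early dehydration-response gene, had 9.67 and 9.91 with ASP, against 9.98 and 10.73 in control. Its log2 fold change of -0.57 had an interval of -1.57 to 0.44. The groups of both genes did not overlap, but for GSTU17 the control arrays lay further apart than the group means.

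GSTU19, GSTU20 and GSTU13, all measured with bright signal, differed little. GSTU19 (AT1G78380), a safener-responsive enzyme active on chloroacetanilide herbicides and the model substrate chlorodinitrobenzene, had 13.51 and 13.56 with ASP, against 13.41 and 13.56 in control, and its 95% interval of -0.39 to 0.49 leaves room for a change of up to about that size either way. GSTU20 (AT1G78370), known to bind the jasmonate-conjugating enzyme JAR1, had 12.62 and 12.57 with ASP, against 12.82 on both control arrays. That is a log2 fold change of -0.22 (95% interval -0.63 to 0.18), small but larger than the distance between arrays of either group. GSTU13 (AT1G27130), which acts in the indole glucosinolate pathway of pathogen defence, had 10.51 and 10.47 with ASP, against 10.69 and 10.43 in control, so its groups overlapped.

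The other 17 tau probe sets had a smallest unadjusted limma p of 0.0918. The 12 of them called present on at least 1 array had log2 fold changes between -0.49 and 0.49, and the other 5 were at background. GSTU24 and GSTU25, whose enzymes are known to conjugate the explosive trinitrotoluene, were at -0.41 and 0.22, with groups that overlapped. GSTU5, related to an auxin-inducible tobacco gene, was at 0.19, with signals of 10.08 and 9.90 with ASP, against 9.80 on both control arrays. GSTU8 was at 0.49, GSTU1 at 0.33 and GSTU27 at -0.43.

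**Figure D1:**
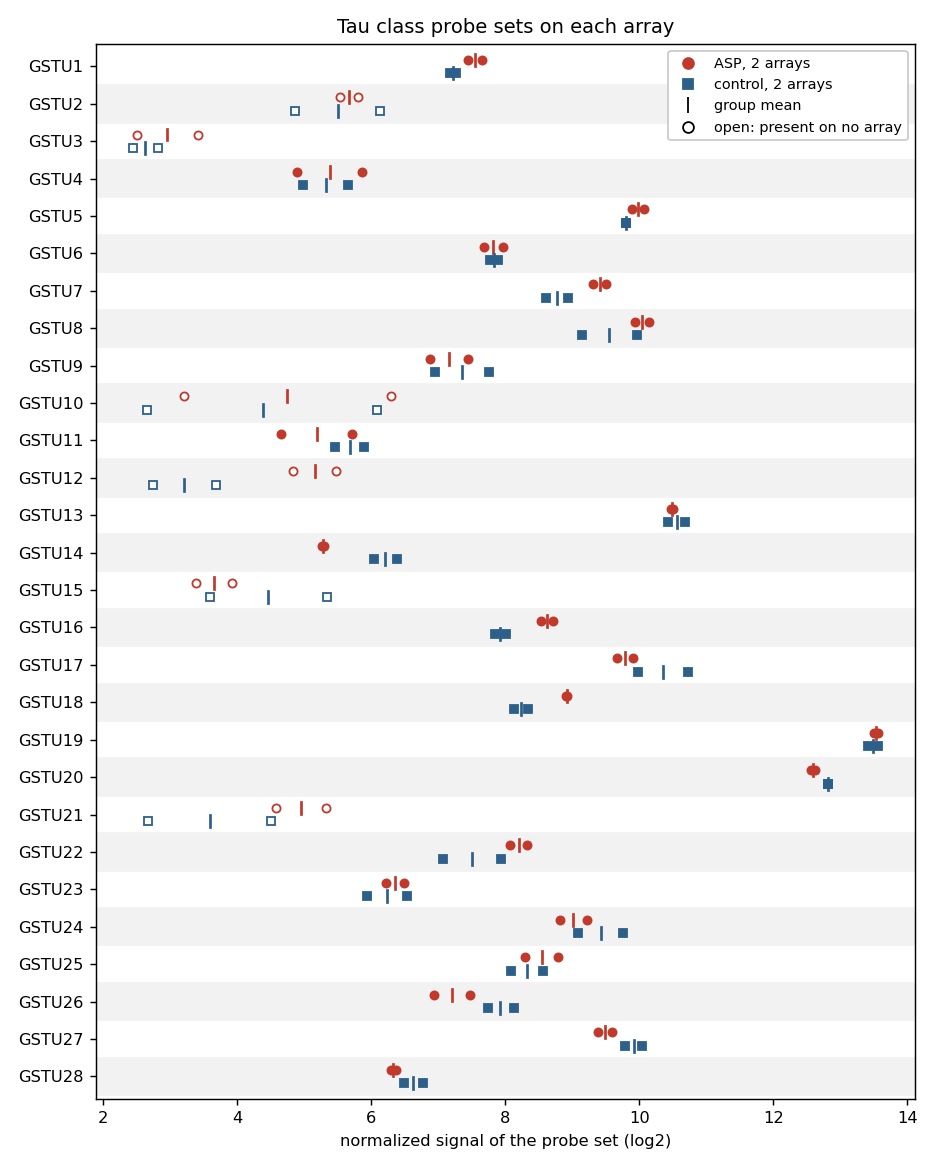
Normalized log2 signal of each tau probe set on the 2 ASP arrays (red circles) and the 2 control arrays (blue squares), with group means as ticks; open symbols mark probe sets called present on no array. GSTU7, GSTU16 and GSTU18 show ASP arrays to the right of both control arrays, and GSTU14 and GSTU26 show them to the left.

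In the phi class GSTF10 (AT2G30870, also ERD13), which binds the receptor kinase BAK1, had the smallest p. Its log2 signals were 12.88 and 12.92 with ASP, against 13.28 and 13.53 in control. It averaged 12.90 ± 0.02 with ASP and 13.40 ± 0.17 in control (SD, n = 2 each), 1.42-fold lower, with a log2 fold change of -0.50 and a 95% interval of -0.99 to -0.01. By limma its adjusted p was 0.669 without the trend and 0.216 with it. Both ASP arrays lay below both control arrays.

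The shared probe set of GSTF6 and GSTF7, of which GSTF6 is known to conjugate glutathione in camalexin synthesis, had 12.50 and 12.58 with ASP, against 12.82 and 13.24 in control. It was 1.40-fold lower (log2 fold change -0.49, 95% interval -1.13 to 0.16, limma adjusted p 0.741). GSTF9 (AT2G30860), an enzyme with glutathione peroxidase activity, had 13.99 and 14.04 with ASP, against 14.28 and 14.14 in control, a log2 fold change of -0.20 (95% interval -0.63 to 0.24). In both the groups did not overlap, and the intervals included 0.

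Larger but less precise differences were measured in dimmer phi probe sets. GSTF14 (AT1G49860) had 7.68 and 6.79 with ASP, against 8.16 and 8.10 in control, and was 1.86-fold lower (95% interval of the log2 fold change -2.01 to 0.21). GSTF13 (AT3G62760) had 5.21 and 6.01 with ASP, against 7.23 and 6.21 in control, and was 2.15-fold lower (95% interval -2.67 to 0.46). GSTF4 (AT1G02950) had 5.18 and 3.98 with ASP, against 5.05 and 5.93 in control, and its groups overlapped. GSTF4 and GSTF13 were each called absent on 1 ASP array and present on both control arrays.

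The remaining phi probe sets were near 0 or uneven. GSTF8 (AT2G47730), a widely used marker of early stress responses, had 12.25 on both ASP arrays, against 12.21 and 12.42 in control. The pair GSTF2 and GSTF3, of which GSTF2 is known to bind indole compounds, had 12.15 and 11.91 with ASP, against 11.98 and 12.82 in control. Both had a negative log2 fold change (-0.07 and -0.37) only through control replicate 2: without that array 2 of the 10 phi probe sets, these same ones, were above 0. GSTF11 (AT3G03190), of the aliphatic glucosinolate pathway, was at -0.10 and GSTF5, present on no array, had signals of 3.61 and 3.91 with ASP, against 4.80 and 3.56 in control.

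**Figure D2:**
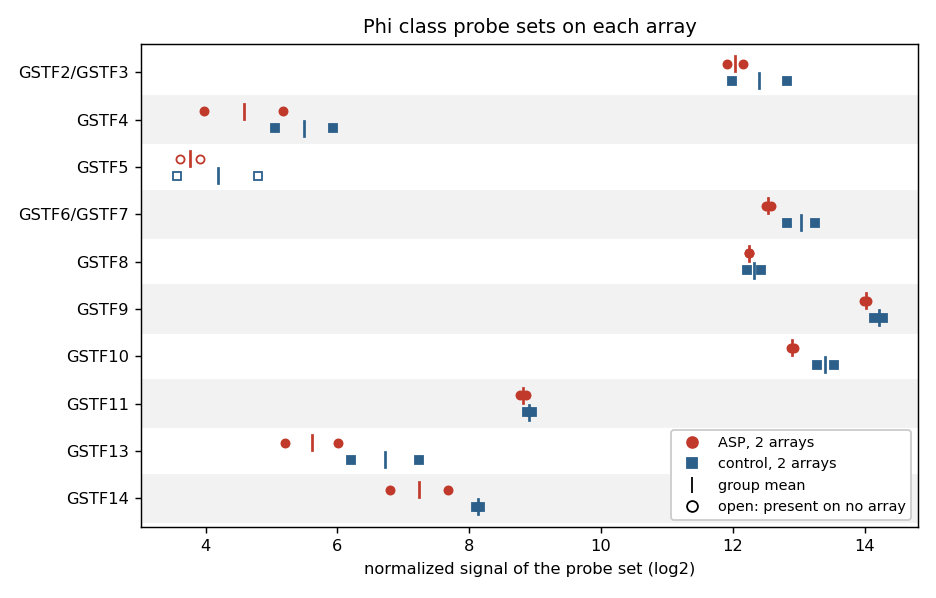
Normalized log2 signal of each phi probe set on the 2 ASP arrays (red circles) and the 2 control arrays (blue squares), with group means as ticks and open symbols for GSTF5, called present on no array. The ASP mean lies left of the control mean in 10 of 10 probe sets, with a gap larger than the spread for GSTF10, among others. The groups overlap for GSTF4 and GSTF8, among others.

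Counts over the classes put these values beside the whole array. In the phi class both ASP arrays lay below both control arrays in 6 of 10 probe sets (60%) and above them in 0, where over all probe sets 20.9% were lower and 18.5% higher in this sense. In the tau class 8 of 28 (28.6%) lay wholly above and 6 (21.4%) wholly below. The 8 include GSTU12 and GSTU21, at background in both groups, whereas all 6 wholly below were called present on at least 1 array. An unadjusted p under 0.05 was reached by 6 of the 38 members without the trend (7.42% of all probe sets) and by 11 with it (9.47% of all probe sets). Both counts include GSTU12, which was at background in both groups. The fitted difference was at least 2-fold in 3 of the 38 members, against 12% of all probe sets, and 2 of these, GSTU12 and GSTU21, were at background in both groups, which leaves GSTF13.

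The median deviation of the phi probe sets from their own means was -0.09 and -0.18 on the ASP arrays, and 0.11 and 0.25 on the control arrays. That of the tau probe sets was 0.19 and -0.08 on the ASP arrays, and -0.01 and -0.04 on the control arrays. The phi class thus separated the groups on these 4 arrays and the tau class did not, but the difference between the classes was not tested, since their members were not chosen independently of these data.

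The choice of variance prior moved which intervals included 0. With the trend the 95% interval also excluded 0 for GSTU17 (-1.08 to -0.05), GSTU22 (0.03 to 1.36), GSTU26 (-1.33 to -0.12), GSTU27 (-0.75 to -0.11), the pair GSTF6 and GSTF7 (-0.83 to -0.14) and GSTF14 (-1.58 to -0.21). It no longer did so for GSTU14. These intervals are not adjusted for the number of probe sets.

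**Figure D3:**
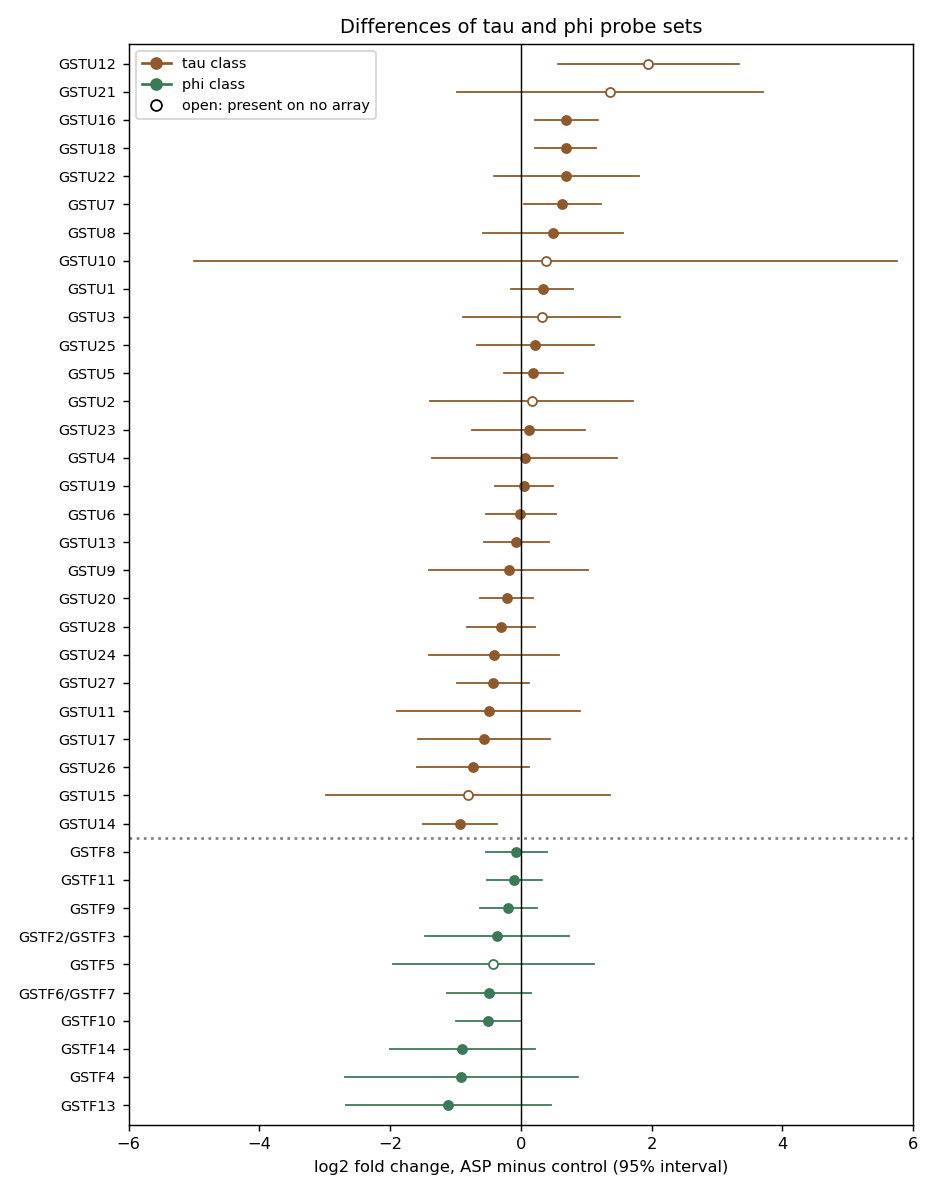
Log2 fold change (ASP minus control, x axis) with its 95% interval from limma without the trend for each tau probe set (brown, upper part) and phi probe set (green, lower part), sorted within each class; open symbols were called present on no array and lie at background. All 10 phi points lie below 0, yet the interval excludes 0 for GSTF10 alone in that class and, in the tau class, for GSTU7, GSTU12, GSTU14, GSTU16 and GSTU18.

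Members of the authors' deposited table of differing probe sets were GSTU14 and GSTF13. In the authors' deposited table, which used 3 columns per group, an unadjusted p under 0.05 and a 2-fold threshold, the ratio of ASP to control was 0.444 for GSTU14 (p = 0.0152) and 0.464 for GSTF13 (p = 0.0484). Both were called present on 1 of the 2 ASP arrays analysed here, and the 36 other members were not in that table of 148 probe sets.

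Many of these genes stand in tandem. With at most 3 other loci between members, 29 of the 40 genes fell into 9 groups of neighbours. Of these, 6 held probe sets on both sides of 0, those at background included. The groups GSTU15 with GSTU16 and GSTU11 with GSTU12 did so only through GSTU15 and GSTU12, which were at background. GSTU17 and GSTU18 are neighbours and had log2 fold changes of -0.57 and 0.69. In the group GSTU24 to GSTU26 the values were -0.41, 0.22 and -0.73. In the group of 5 genes from GSTU19 to GSTU23, GSTU20 was at -0.22 and GSTU22 at 0.69.

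The largest group, GSTU1 to GSTU7, had 6 of 7 probe sets above 0, from GSTU6 at -0.01 to GSTU7 at 0.63, although 4 of the 7 were called present on all 4 arrays. In 3 groups every value was below 0, those of the phi neighbours GSTF9 and GSTF10 and GSTF4 to GSTF7 and of the tau neighbours GSTU13 and GSTU14 (-0.07 and -0.93). Differences between neighbours were not tested.

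**Figure D4:**
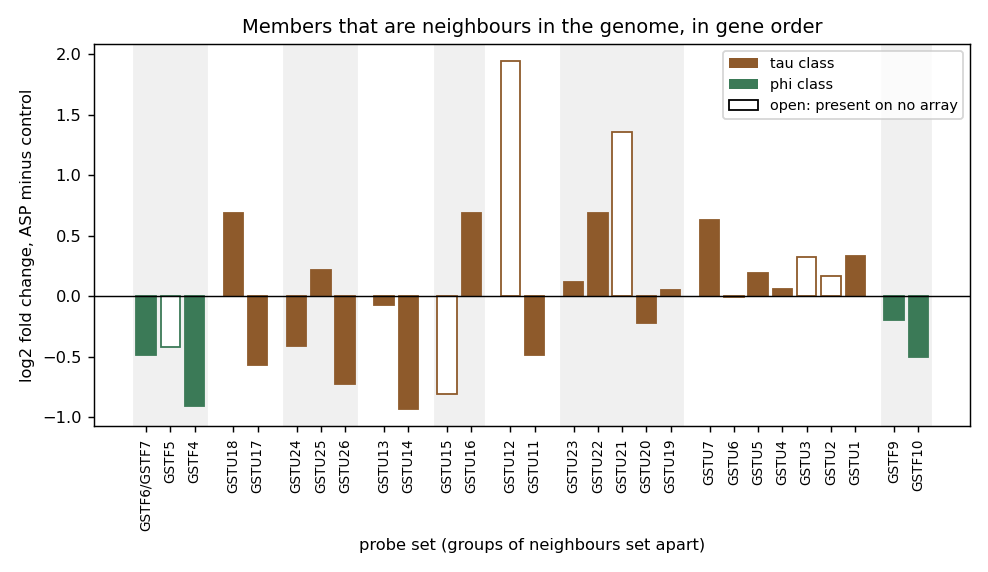
Log2 fold change (ASP minus control, y axis) of members that are neighbours in the genome, drawn in gene order with groups set apart by shading; brown bars are tau, green bars phi, and open bars were called present on no array. GSTU17 and GSTU18 point in opposite directions, and both phi groups and GSTU13 with GSTU14 point down.

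The annotation deposited with the values gives most tau genes a link to oxylipins. The term response to cyclopentenone was attached to 19 members, 18 of them tau. Of the 19, 12 were above 0 (47.5% of all probe sets), with a median log2 fold change of 0.17. The 12 include GSTU2, GSTU10 and GSTU21, all at background, and the median is the value of GSTU2. Defence response to bacterium was attached to 5 members, all phi, with 5 below 0 (52.5% of all probe sets) and a median of -0.37. These terms follow the 2 classes, so they are not separate evidence.

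Glutathione supply, the step before conjugation, differed little. The 4 genes of glutathione synthesis and reduction (GSH1, GSH2, GR1 and the plastid reductase GR) had log2 fold changes from -0.10 to 0.02, and 0 of 4 passed limma with or without the trend. Downstream, 9 of 10 measured genes of conjugate transport and breakdown, of 11 listed, were above 0, against 47.5% of all probe sets. The median of the 10 was 0.28, and 0 of 10 passed either way. The 2 present on no array, GGT2 and GGT3, are among the 9. ABCC2, a vacuolar ABC transporter of glutathione conjugates, had log2 signals of 8.90 and 8.92 with ASP, against 8.20 and 8.36 in control, and was 1.55-fold higher (limma adjusted p 0.568).

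Its relative ABCC1 had 9.68 and 9.72 with ASP, against 9.26 and 9.34 in control (1.32-fold higher, limma adjusted p 0.686). GGP1, a cytosolic peptidase that acts on glutathione conjugates in glucosinolate synthesis, was the 1 gene below 0 (log2 fold change -0.27). GGT2 and GGT3, with absent calls on all 4 arrays, were at background.

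Among known regulators of detoxification genes, 7 of 8 listed were measured and 0 passed either fit. The stress NAC factors ATAF1, NAC102 and NAC032 were higher by log2 fold changes of 0.69, 0.67 and 0.57 (limma adjusted p 0.560, 0.557 and 0.703), and ATAF1 had 9.43 and 9.34 with ASP, against 8.59 and 8.80 in control. The TGA factors that bind promoters of glutathione transferase genes, listed as AHBP-1B (TGA2), OBF5 (TGA5) and TGA6, were at -0.27, -0.19 and -0.18, and their partner SCL14 at 0.08. The NAC values and the TGA values thus lay on opposite sides of 0.

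Other xenobiotic response enzymes were above 0 in 6 of 6 measured genes, of 11 listed, against 47.5% of all probe sets. The median of the 6 was 0.79, against the tau median of 0.09, and the list was chosen with earlier results of these data known. CYP81D11, a cytochrome P450, was the 1 that passed with the trend (limma adjusted p 0.0321, and 0.510 without it). The glucosyltransferase gene UGT75B1 had 7.46 and 7.24 with ASP, against 6.63 and 6.24 in control, 1.89-fold higher. UGT74E2 was at a log2 fold change of 0.83 and UGT73B4, present on 1 array, at 0.75.

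Of the other glutathione transferase classes, 10 genes had a probe set of their own and 0 passed either fit, with 6 above 0, 4 below and a median of 0.03. GSTF12, the phi member needed for anthocyanin transport and not on the list of 40, had 5.75 and 5.80 with ASP, against 7.15 on both control arrays. That is a log2 fold change of -1.38 (limma adjusted p 0.341, and 0.191 with the trend), with an absent and a marginal call on the ASP arrays. GSTL1 of the lambda class, uneven between the ASP arrays, had 2.68 and 5.86 with ASP, against 6.59 and 6.36 in control. GSTT2 and GSTZ2 were at background on at least 3 arrays.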

How the data were processed

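Per the labels' protocols, seedling RNA was turned into biotin-labelled cRNA with a GeneChip 3′ IVT PLUS kit for Affymetrix arrays. Per the file headers, the authors deposited normalized log2 signal per probe set, beside calls that the probe set was present, marginal or absent. For the normalization, the method is not given in the sources used here. Each array's trimmed mean of the linear signal was 500.0, and the series matrix held the same log2 values. The authors also deposited a table with an unadjusted p-value and a ratio (fold change) of group means, per the file headers. A further 4 per-sample columns of the workbook could be matched to no sample and were left out.

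After 64 Affymetrix control probe sets were set aside, 22746 were fitted with limma 3.58.1 in R 4.3.3 (two-sided eBayes test of a group effect, with neither a trend nor a replicate block). P-values were adjusted over all of them by Benjamini-Hochberg, with a threshold of 0.05. Intervals are 95% intervals of that fit (2 residual and 1.34 prior degrees of freedom, and 6.06 prior degrees with the trend). Neighbours and names came from the RefSeq gene table of TAIR10.1, in which all 40 loci were found. For other genes the brightest probe set of 1 gene stood for the gene. The rule for members given in full took, in each class, the 4 with the smallest p, the 3 largest differences in each direction and the 3 brightest among those present on both arrays of a group, plus any with an unadjusted p under 0.05, and others are named for their known function. From each other list up to 4 genes with the smallest p were taken, and further ones were chosen after their values were seen. The members and lists were chosen with earlier results of these data known. Same-numbered samples did not deviate together (correlation of 2e-04 over all probe sets), so the numbers were not used as pairs. Alternatives were a replicate block, other variance priors, filters on dim probe sets, a floor for low values, other normalizations, single probe sets per gene, an unmoderated test and leaving out each array. Promoter motifs were not analysed here.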

Additional observations from a re-analysis of the deposited data

How the results depend on the processing

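Over 21 alternative settings, 16 planned and 5 added after the data were seen (the intensity trend with a replicate block and without each array), no tau or phi probe set was called. The number of all probe sets called was 0 without the trend, also with the replicate block, 1 with linear values under 50 set to 50, 18 without the dimmest 30% and 19 with those present on at least 2 arrays. With the trend it was 72, it was 321 with the trend and the replicate block, and with the trend and without single arrays it was 11 (ASP replicate 1 left out), 9 (ASP replicate 2), 22 (control replicate 1) and 37 (control replicate 2). The smallest adjusted p of a member was 0.0526, with the trend and the replicate block. Members past 2-fold numbered 3, 1 under both filters on dim probe sets, 0 with the floor of 50, and 5 to 6 without single arrays. The phi median of -0.45 was -0.28 with the floor and ran from -0.61 to -0.33 without single arrays, where 0 to 2 phi probe sets were above 0. Without single arrays the tau median of 0.09 ran from -0.06 (without ASP replicate 1) to 0.15 (without ASP replicate 2). It was 0.2 with quantile normalization and 0.0 with the floor. Both filters left 10 tau probe sets above 0, of 20 and 21 kept. Among the 17 members given in full, GSTU19 and GSTU13 turned sign without control replicate 1 (values without single arrays ran from -0.03 to 0.13 and from -0.20 to 0.06). With the floor the difference of GSTU12, at background, was 0.00, and those of GSTU14, GSTF13 and GSTF4 shrank to -0.57, -0.89 and -0.14. Fits without 1 array assume that the lone array of its group varies like the other group. The 2 filters on dim probe sets left 15922 and 15645 to test, and the variance prior was fitted again on those. The cause of these shifts was not tested. Dim members, with wide within-group spread, are the least precise.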
